A study of Mus musculus musculus x Mus musculus castaneus with 12 samples.

Results

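Chromosome 8 was described in the exonic *Kdm6a* knockout clones of the BC cross, in which *Mus musculus* C57BL/6J (BL6) was the mother and *Mus castaneus* (cast) the father. *Kdm6a*, on the X chromosome, encodes a histone demethylase that removes methyl groups from lysine 27 of histone H3. The series holds RNA-seq of 12 samples of F1 hybrid mouse embryonic stem (ES) cells in 7 groups, and SNPs between the strains assign a share of the fragments to the BL6 or to the cast allele. The exonic clones, ΔE1 and ΔE3, are male, carry a CRISPR/Cas9 deletion between exons 2 and 4 of *Kdm6a*, and were compared with 3 male BC samples: wt replicates 1 and 2, and the promoter clone ΔP4, whose deletion removes the promoter region. These 3 are called the reference samples below. According to the study, ΔE1 and ΔE3 have the same breakpoints and the same off-target deletion on the X chromosome. It states that they come from a single editing event. All lines were grown on feeder cells, and the study's methods describe plating on gelatin and a further split before use to reduce feeders. The other 7 samples are used only as a range: 2 of BC female wt and 5 of the reciprocal CB cross (cast mother), namely 2 male wt with an actin-GFP transgene, the exonic clones ΔE2.5 and ΔE2.7 and the promoter clone ΔP2.1.

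Members are the genes that the GENCODE vM21 annotation (GRCm38, which is mm10) places on chromosome 8, whatever their values: 1114 of the 24346 genes in the files, beside 21181 on the other autosomes. Of the 1114, 719 exceeded 1 TPM (a level per transcript length, scaled to the same total in every sample) in at least 1 of the 5 samples and were tested, and 395 did not, among them 147 with no fragment in any of the 5. Over the whole genome 13808 genes were tested. Depth was about 80321900 to 85698600 fragments per sample, of which 9.84% to 10.1% carried a BL6 SNP and 7.84% to 8.20% a cast SNP.

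A gain or loss of a whole chromosome changes the gene dose of all its genes together. In the simplest case RNA follows the dose, while genes under feedback control or with a limiting activator can keep their level. Extra copies of chromosome 8 are among the best known karyotype changes of cultured mouse ES cells. No DNA was measured here, so copy numbers are not known, and the log2 ratio of 2 to 3, -0.58, serves only as a line against which RNA is read. In these bulk samples, a change in some cells and a smaller change in every cell cannot be told apart.

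The 4 guide RNAs that define the clones are shown because the groups rest on them. They are printed 5′ to 3′ with the guide in lower case and the PAM in capitals, and their positions are those given for mm10.
ΔE Left: gaaacctcacgaacccgaaaAGG
ΔE Right: tagcattatctgcataccagAGG
ΔP Left: ggacactgcatgtttgatggAGG
ΔP Right: agctacatactccaaaggagAGG
The ΔE Left guide lies at chrX:18163390-18163409 inside exon 2 of *Kdm6a* (18163384 to 18163447), and the guide with its PAM matches the minus strand of that exon. The ΔE Right guide, chrX:18208733-18208752, overlaps the start of exon 4 (18208736 to 18208785). The ΔP guides, chrX:18160528-18160547 and chrX:18164295-18164314, lie outside exons of the longest *Kdm6a* transcript, the former upstream of the gene's start at 18162575.

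The targeted gene was low in all 3 knockout clones. *Kdm6a* was at 49.8 and 51.3 TPM in wt replicates 1 and 2, at 11.6 in ΔE1, at 13.5 in ΔE3 and at 0.0441 in ΔP4. Fragments of *Kdm6a* were thus still read in the exonic clones. *Pdha1*, a subunit of pyruvate dehydrogenase inside the off-target deletion, was at 335, 359 and 384 TPM in wt replicates 1 and 2 and ΔP4 but at 0.217 and 0.727 TPM in ΔE1 and ΔE3 (log2 fold change -9.55 with a standard error, SE, of 0.45, adjusted p = 0.00142 from edgeR). Its neighbours *Map3k15* and *Sh3kbp1* were at 0.0470 TPM or less and at 0.315 TPM or less in the exonic clones, and at 9.05 to 15.7 and 2.08 to 2.58 TPM in the reference samples. ES cell markers (*Pou5f1*, *Sox2*, *Nanog*, *Klf4*, *Esrrb*, *Tfcp2l1*, *Dppa5a*) summed to 8340 and 8351 TPM in the exonic clones and to 6073 to 7171 TPM in the reference samples. A large part of that sum was *Dppa5a*, at 3560 and 2828 TPM in ΔE1 and ΔE3 against 1718 to 2596 TPM. The groups overlapped for *Pou5f1* (2620 and 3015 TPM against 2202 to 2822 TPM). Markers of feeder fibroblasts summed to 24.3 and 11.7 TPM in ΔE1 and ΔE3 and to 21.0 to 35.3 TPM in the reference samples, with 4 of 7 above the level needed for a test. At an unadjusted p below 0.05, 2 of 7 ES cell markers (*Klf4*, *Dppa5a*) were higher and 1 feeder marker (*Thy1*) lower. Of 5 primitive endoderm markers, *Gata6* and *Sox17* were higher (log2 fold changes of 0.94 and 1.26, at 1.46 TPM or less) and *Dab2* was lower (-0.63). Of 4 mesendoderm markers *Eomes* was lower (-0.58), and of 4 trophoblast markers, with 3 tested, 0 passed. At that threshold 7.65% of all tested genes were lower and 5.29% higher. None of the marker genes passed the adjusted threshold in edgeR, whereas DESeq2 called *Klf4* higher and *Thy1* and *Dab2* lower.

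RNA from chromosome 8 was lower in both exonic clones. It made up 6.61% and 6.58% of autosomal fragments in wt replicates 1 and 2 and 6.74% in ΔP4, against 4.88% in ΔE1 and 4.76% in ΔE3. The exonic clones averaged 4.82% ± 0.0912 (SD, n = 2) and the reference samples 6.64% ± 0.0832 (SD, n = 3), a ratio of 0.726. The groups did not overlap, and the exact two-sided permutation test over the 5 samples gave p = 0.2, the smallest that 2 against 3 samples allow. The 7 other samples of the series, BC female wt and all CB samples, lay between 4.65% and 5.03%. The exonic clones were inside that range, and the BC male wt and ΔP4 were above it.

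The lower RNA was BL6, that is, maternal. The median BL6 share of the SNP fragments over 608 chromosome 8 genes with at least 20 SNP fragments in each sample was 66.7% and 67.1% in wt replicates 1 and 2, 67.7% in ΔP4, 51.1% in ΔE1 and 51.5% in ΔE3. The difference between the group means, 51.3% ± 0.285 (SD, n = 2) and 67.2% ± 0.487 (SD, n = 3), was -15.9 percentage points (exact permutation p = 0.2, again the smallest possible). Over 10195 genes of the other autosomes, the same median was 52.0% to 52.2% in all 5 samples. The exonic clones were close to that level on chromosome 8, and the reference samples were not. In the CB cross the chromosome 8 median, over 564 genes, was 52.0% and 51.8% in wt, 51.8% and 51.5% in ΔE2.5 and ΔE2.7 and 45.4% in ΔP2.1. It was 44.2% and 44.5% in BC female wt. In ΔP2.1 and BC female wt the lower quartile was 25.2% to 27.2%, against 47.4% to 48.1% in the other 4 samples.

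**Figure D1:**
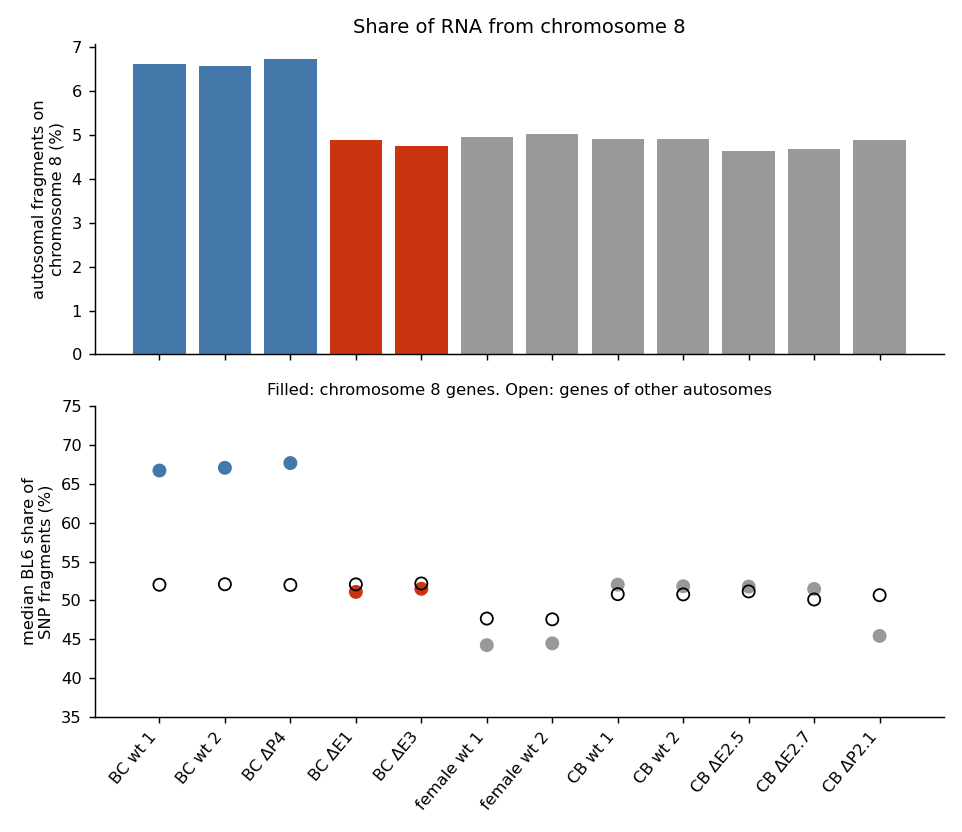
Upper panel: percent of autosomal fragments from chromosome 8 in each of the 12 samples (bars). Lower panel: median BL6 share of SNP fragments (percent) over chromosome 8 genes (filled) and genes of other autosomes (open), 1 point per sample; blue marks the reference samples, red the exonic clones and gray the other 7. The 3 blue bars are at 6.58% to 6.74% and the red bars at 4.88% and 4.76%, and on the lower panel the filled blue points are at 66.7% to 67.7%.

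Gene by gene, the decrease was broad and moderate. The median log2 fold change of the 719 tested chromosome 8 genes was -0.49, a level 29.0% lower, with an interquartile range of -0.64 to -0.34. The 12127 tested genes of the other autosomes had a median of 0.03, and all 13808 tested genes of 0.01. Each exonic clone on its own, set against the mean of the reference samples, had a chromosome 8 median of -0.48 (ΔE1) and -0.52 (ΔE3), whereas the medians of the other 18 autosomes lay between -0.05 and 0.08 in these clones. In the same measure wt replicates 1 and 2, each against the remaining reference samples, had -0.03 and -0.02 on chromosome 8, and ΔP4 0.03. Of the chromosome 8 genes, 669 (93.0%) had a log2 fold change below 0, compared with 45.1% of the genes on other autosomes.

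Few single genes passed the adjusted threshold for total level. In edgeR's quasi-likelihood test with Benjamini-Hochberg adjustment (FDR below 0.05), 1 of 719 chromosome 8 genes, *Lpl*, was lower and 0 were higher (DESeq2: 0 higher), against a background of 0.0362% of all tested genes called lower. At an unadjusted p below 0.05, 450 chromosome 8 genes (62.6%) were lower and 5 higher, where 7.65% of all tested genes were lower and 5.29% higher. Both exonic clones were below all 3 reference samples for 540 chromosome 8 genes (75.1%), against 15.6% of all tested genes and 12.1% of those on other autosomes. These counts, here and below, are on the scale of the fit (counts per library scaled by TMM), and by TPM there were 553 such genes (76.9%), against 16.9% of all tested genes. DESeq2, run as an alternative, called 283 chromosome 8 genes lower and 0 higher, with 3.64% of all tested genes called lower. The median stayed between -0.53 and -0.48 in all alternatives run, including those that left out 1 sample. Leaving out ΔE1 gave 29 genes called lower, and leaving out any of the other 4 samples gave 0.

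*Lpl* encodes lipoprotein lipase, which releases fatty acids from circulating lipoproteins (chr8:68880491-68907448). It was at 11.5 TPM in both wt replicates, at 14.4 in ΔP4, and at 3.60 and 3.80 in ΔE1 and ΔE3, a log2 fold change of -1.73 (SE 0.17, adjusted p = 0.042 from edgeR). The groups were well apart, and the decrease of *Lpl* was larger than -0.58 over its whole 95% interval, -2.12 to -1.34. *Lpl* stayed called without ΔE1 and was not called without any of the other 4 samples (adjusted p of 0.0754 to 0.266 from edgeR).

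Allele-specific fragments separated the chromosomes more sharply than total level. BL6 fragments of the 608 genes had a median log2 fold change of -0.88, a level 45.7% lower, and cast fragments one of 0.07, or 4.95% higher. On the other autosomes both medians were 0.03. BL6 fragments were called lower for 285 of the 608 genes (46.9%; 2.77% of all 10803 genes tested by allele) and higher for 0. For cast fragments 0 chromosome 8 genes were called by edgeR, against 0.139% of all genes. At an unadjusted p below 0.05 there were 52 (8.55%), 40 higher and 12 lower. On the other autosomes 7.22% passed that threshold, 4.05% higher and 3.17% lower. The change of BL6 minus the change of cast, tested within samples, had a median of -0.96 and was below 0 for all 608 genes, a sign that for the few genes without cast fragments rests on the prior count. It was called for 483 of them (79.4%), all with BL6 below cast, where 4.93% of all genes were called in that direction.

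The call on BL6 fragments alone rested on single samples: it fell to 0 genes without wt replicate 2, to 2 without ΔE3, to 80 without wt replicate 1 and to 180 without ΔE1. The call on the difference between alleles, in which each sample is its own control, stayed between 426 and 466 genes when any 1 sample was left out. By values alone, 565 of the 608 genes (92.9%) had a lower BL6 share in both exonic clones than in all 3 reference samples, compared with 15.6% of all genes tested by allele.

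**Figure D2:**
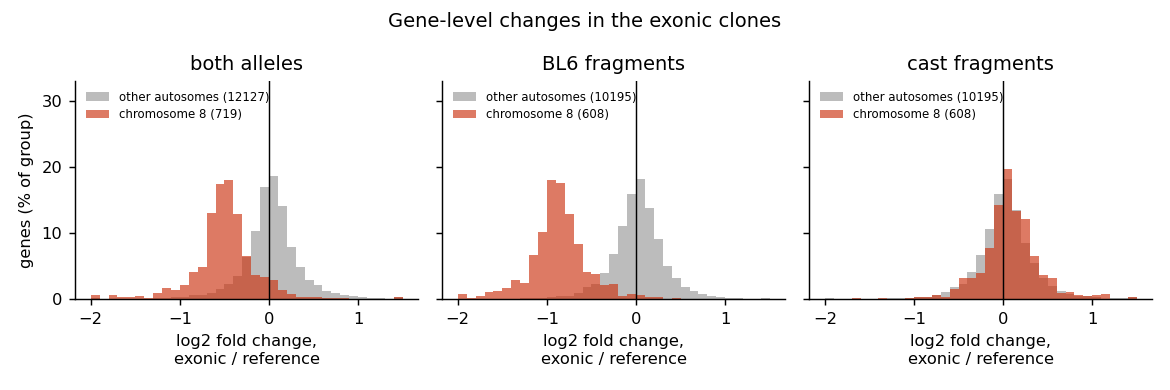
Percent of genes by log2 fold change (exonic clones against reference, bins of 0.1) for all fragments, BL6 fragments and cast fragments, with chromosome 8 in red and the other autosomes in gray; the outermost bins also hold the values beyond them. The red distribution is centred at -0.49 for both alleles together, at -0.88 for BL6 and at 0.07 for cast, and the gray at 0.03 in each panel.

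The decrease ran along the whole chromosome. In 10-Mb bins with at least 8 tested genes, the median log2 fold change lay between -0.63 (30 to 40 Mb, 27 genes) and -0.40 (10 to 20 Mb, 39 genes). The BL6 share of the bins was 65.8% to 68.6% in the reference samples and 49.8% to 52.6% in the exonic clones, so that no bin of one group reached the level of the other. No bin stood at the level of the other autosomes in total RNA.

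**Figure D3:**
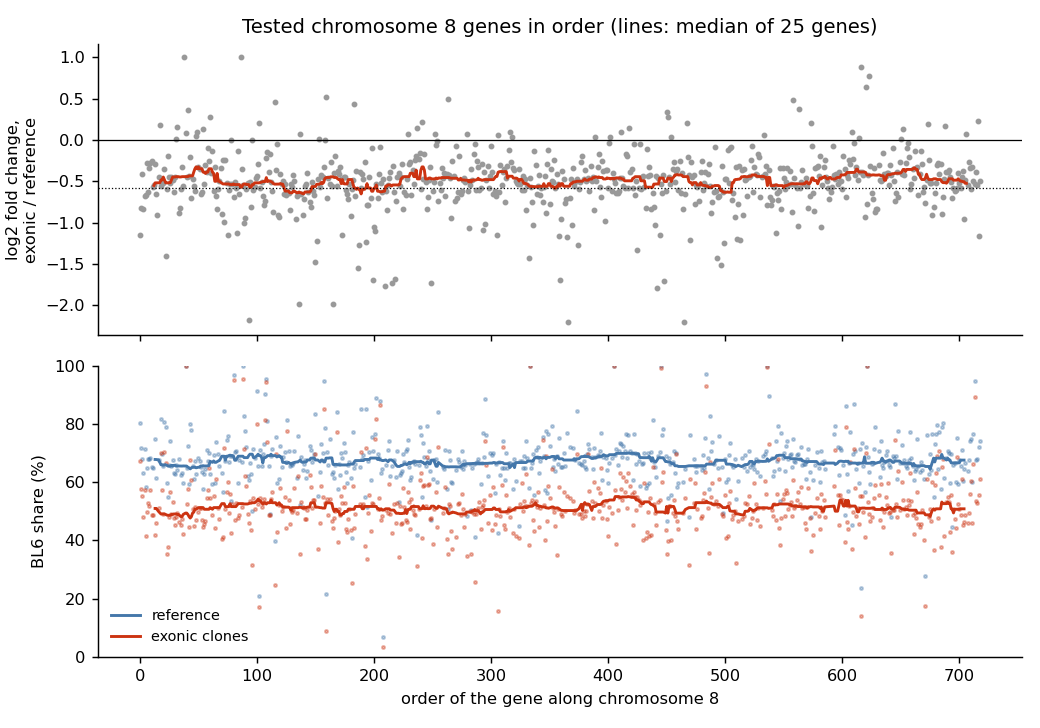
Each tested chromosome 8 gene in its order along the chromosome. Upper panel: log2 fold change of total level (points, those beyond the axis drawn at its edge) with the median of 25 neighbouring genes (red line), a solid line at 0 and a dotted line at -0.58. Lower panel: BL6 share (percent) of genes with at least 20 SNP fragments, blue for the reference mean and red for the exonic mean, with medians of 25 genes, which stay apart over the whole chromosome.

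Chromosome 8 genes were split into 4 groups of about equal size by mean level. In the group of genes with the lowest mean level (0.351 to 8.14 TPM) the median log2 fold change was -0.48, and in the next groups -0.48, -0.53 and -0.47. The spread did narrow: the interquartile range was -0.84 to -0.17 in the lowest group and -0.57 to -0.36 in the highest (86.2 to 4314 TPM).

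The BL6 share that a gene had in the reference samples went with its response in total level only loosely. If only BL6 fragments fell, and by 50%, a gene with a high BL6 share should lose more. The 72 genes with a reference share of 40% to 60% had a median log2 fold change of -0.33, the 493 genes at 60% to 80% one of -0.50 and the 37 genes at 80% or more one of -0.55; the values given by that rule were -0.48, -0.59 and -0.82. All 3 medians were closer to 0 than the rule gives. BL6 fragments of these 3 groups also fell by less than the 50% of the rule, which is a log2 fold change of -1. Their medians were -0.76, -0.89 and -0.81, and those of cast fragments 0.12, 0.06 and 0.12. Few genes had lower shares: the 5 genes at 20% to 40% had a median of 0.46, where the rule gives -0.18. The 1 gene below 20% had -0.47, further from 0 than the -0.05 of the rule. Across the 608 genes Pearson's r was -0.25 and Spearman's rho -0.22, as a description, since both measures use the same reference libraries and genes are not independent replicates.

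At the far end of this range were genes read almost wholly from BL6. *Nfatc3*, a calcium-regulated transcription factor, had a BL6 share of at least 99.3% in all 5 samples. Its level was 72.4, 71.5 and 81.3 TPM in wt replicates 1 and 2 and ΔP4 and 42.3 and 43.5 TPM in ΔE1 and ΔE3, a log2 fold change of -0.79 (SE 0.10; adjusted p = 0.069 from edgeR, 95% interval -1.02 to -0.56). *Mphosph6*, which takes part in RNA processing by the exosome, had a share of 99.8% to 99.9% and a log2 fold change of -0.77 (SE 0.14). In the 7 other samples their shares were also 99.4% or more, so few cast fragments were read from these genes in any sample. *Wdr83os* and *Gm6524* likewise had no cast fragment in any of the 5 samples, at log2 fold changes of -0.47 and 0.09 (adjusted p = 0.655 and 0.932 from edgeR).

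Genes were then sorted by the 95% interval of the log2 fold change against the lines 0 and -0.58. Of the 719 chromosome 8 genes, 410 (57.0%) followed the dose line, that is, their interval held -0.58 and not 0. Another 25 lay wholly below -0.58, 15 lay between the lines, 54 (7.51%) held 0 and not -0.58, 5 were higher than 0, and 210 (29.2%) could not be resolved because the interval held both. On the other autosomes 7971 of 12127 genes (65.7%) held 0 and not -0.58, and 437 (3.60%) followed the dose line. The count of chromosome 8 genes at 0 was 30 without wt replicate 2 and 83 without ΔP4, so membership of that class depended on these samples.

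The largest decreases among chromosome 8 genes went well past the dose line. *Plekha2*, a phosphoinositide-binding adaptor, was at 27.2, 27.0 and 16.0 TPM in wt replicates 1 and 2 and ΔP4 and at 7.58 and 2.75 TPM in ΔE1 and ΔE3 (log2 fold change -2.17, SE 0.47). *Ankrd37*, known as a target of hypoxia-inducible factors, was at 34.7, 38.2 and 29.3 TPM against 11.2 and 5.82 TPM (-1.99, SE 0.33). The actin-associated protein gene *Palld* was at 41.9, 38.6 and 35.9 TPM against 16.6 and 7.13 TPM (-1.69, SE 0.33). In each of these genes the groups did not overlap, and ΔE3 was lower than ΔE1. *Plekha2*, *Ankrd37* and *Palld* did not pass the adjusted threshold in edgeR (adjusted p = 0.132, 0.0985 and 0.109), and all 3 passed it in DESeq2. The cast fragments of *Plekha2*, *Ankrd37* and *Palld* had log2 fold changes of -1.61, -1.39 and -0.77 (adjusted p = 0.39, 0.28 and 0.74 from edgeR), and those of *Lpl* had -1.09 (adjusted p = 0.29). *Cers1* and *Mt4* had log2 fold changes of -1.73 and -1.70 with SEs of 1.23 and 0.70, at mean levels of 2.95 and 4.19 TPM, and in *Cers1* the level of ΔE3 matched that of wt replicate 2 (2.39 TPM in both).

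At the other end, 5 genes had an interval above 0, *Zfp42*, *Mt1*, *Mt2*, *Pkd1l2* and *1700016D06Rik*. *Zfp42* (Rex1), a zinc finger gene that marks naive ES cells (chr8:43295063-43306980), was at 297, 282 and 415 TPM in wt replicates 1 and 2 and ΔP4 and at 422 and 513 TPM in ΔE1 and ΔE3. Its log2 fold change was 0.52 (SE 0.17; adjusted p = 0.25 from edgeR), the exonic clones were above all reference samples, and ΔE1 was close to ΔP4. The BL6 share of *Zfp42* was 22.1%, 24.5% and 17.6% in the reference samples and 8.45% and 9.31% in the exonic clones, a fall of 12.5 points, and its cast fragments had a log2 fold change of 0.75 (adjusted p = 0.42). The 7 ES marker genes of other chromosomes had log2 fold changes of 0.86 for *Klf4*, 0.67 for *Dppa5a*, 0.59 for *Nanog*, 0.59 for *Esrrb*, 0.51 for *Tfcp2l1*, 0.21 for *Sox2* and 0.13 for *Pou5f1* (95% interval -0.26 to 0.52), with adjusted p of 0.19 to 0.83 from edgeR. On the scale of the fit, 14.1% of all tested genes and 0.83% of chromosome 8 genes had both exonic clones above all reference samples. Of the 7 ES marker genes *Klf4* and *Dppa5a* did, and the groups of the other 5 overlapped. The part of these genes in the *Zfp42* result was not tested.

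The metallothioneins *Mt1* and *Mt2*, small proteins that bind zinc and copper and are induced by metals and stress, were next. *Mt2* was at 3897, 3576 and 4298 TPM in wt replicates 1 and 2 and ΔP4 and at 4633 and 5165 TPM in ΔE1 and ΔE3 (log2 fold change 0.34, SE 0.11, adjusted p = 0.26 from edgeR). *Mt1* was at 2268, 2051 and 2375 TPM against 2651 and 2660 TPM (0.27, SE 0.10, adjusted p = 0.31). In both, the exonic clones were above every reference sample, though neither gene was called. Their BL6 shares fell, by 11.5 points for *Mt2* and 14.7 points for *Mt1*, and the BL6 and cast changes differed in both (adjusted p = 0.000892 and 1.37e-06 from edgeR). Neighbouring *Mt3* had a log2 fold change of -0.62 (SE 0.34), with overlapping groups.

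The rule for the largest increases ran out of genes above 0. The last 3 of its 6 genes, *Calb2*, *Mpv17l2* and *Rfxank*, had log2 fold changes of -0.07, -0.08 and -0.16, with both exonic clones just below the reference samples. At *Mpv17l2*, for example, the levels were 48.9, 48.9 and 54.4 TPM against 48.9 and 45.9 TPM.

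Among well expressed genes with no resolved change were several regulators. *Klf2*, a transcription factor of the naive ES cell network, was at 331, 372 and 425 TPM in wt replicates 1 and 2 and ΔP4 and at 351 and 442 TPM in ΔE1 and ΔE3 (log2 fold change 0.10, 95% interval -0.23 to 0.43). *Eif4ebp1*, an inhibitor of translation initiation, was at 526, 538 and 646 TPM against 472 and 616 TPM (-0.04, -0.38 to 0.29). For both genes the groups overlapped and the interval left out -0.58. *Use1*, *Coprs*, *Cenpt*, *Babam1* and *Gipc1* had log2 fold changes of -0.17, -0.10, -0.07, -0.25 and -0.24.

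Except for *Coprs* (65.4% to 68.9% against 47.9% and 66.6%), the BL6 shares of these genes were lower in both exonic clones than in all reference samples. *Klf2* went from BL6 shares of 66.8%, 68.2% and 65.1% in the reference samples to 49.6% and 46.2% in the exonic clones, and *Eif4ebp1* from 60.2%, 58.0% and 60.4% to 43.4% and 42.5%. The log2 fold change of BL6 fragments was -0.24 and that of cast fragments 0.87 for *Klf2*, and -0.49 and 0.48 for *Eif4ebp1*; the difference was called for both (adjusted p = 2.51e-05 and 8.11e-07 from edgeR), and neither allele alone was. Of all 59 genes classed as without change or higher (8.21% of 719), 53 could be read by allele. Over all 608 chromosome 8 genes read by allele, 565 (92.9%) had a lower BL6 share in both exonic clones than in every reference sample. A difference was called for 483 (79.4%). Among the 53, these counts were 46 and 38. The 49 of them classed as without change had median BL6 shares of 65.9% in the reference samples and 48.9% in the exonic clones, median log2 fold changes of -0.41 for BL6 and 0.45 for cast, and cast values above 0 for 47. In the 366 genes that followed the dose line, the shares were 67.7% and 51.8%, with -0.93 for BL6 and 0.02 for cast. The classes were set by the totals of the same libraries, so these allele values are a description.

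**Figure D4:**
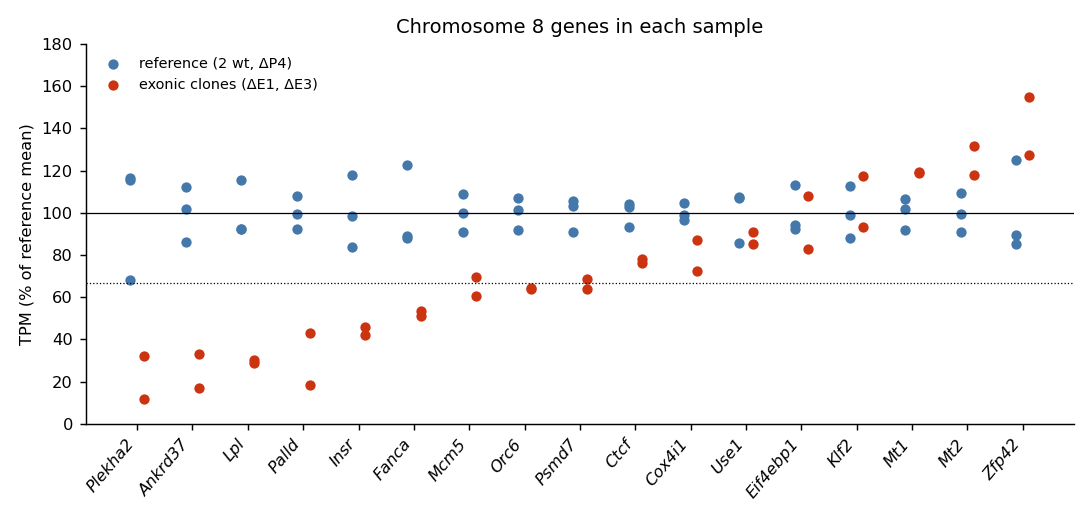
TPM of 17 chromosome 8 genes in each of the 5 samples as percent of the mean of the reference samples; blue points are wt replicates 1 and 2 and ΔP4, red points ΔE1 and ΔE3, the solid line is 100% and the dotted line 66.7%. The red points of *Plekha2*, *Ankrd37*, *Lpl* and *Palld* are well under the dotted line, those of *Orc6* and *Psmd7* close to it, and those of *Mt1*, *Mt2* and *Zfp42* above 100%.

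*Adgra2*, a receptor of the Wnt pathway in blood vessels (chr8:27085583-27123436), did not show the allele shift, with BL6 shares of 46.8%, 49.5% and 51.2% in the reference samples and of 49.6% and 47.9% in the exonic clones, at 2174 or more SNP fragments per sample. Its level overlapped between groups (42.8, 44.7 and 54.9 TPM against 36.7 and 46.1 TPM, log2 fold change -0.17, adjusted p = 0.71 from edgeR). The other 4 of the 5 genes with the smallest shift were the genes with few or no cast fragments described above. *Gab1*, a docking protein of growth factor receptors named after its values were seen, had shares of 77.4%, 76.2% and 72.7% in the reference samples and 74.0% and 74.6% in the exonic clones, with BL6 and cast log2 fold changes of -0.79 and -0.70. The largest falls of the BL6 share were 32.7 points for *Zfp791*, 26.3 for *Sall1*, 25.7 for *Triml2*, 25.3 for *Mt3* and 25.0 for *Lpar2*. *Sall1*, a zinc finger factor of ES cells and the embryo, fell from 64.6%, 66.6% and 68.1% to 39.6% and 40.7%, at a total log2 fold change of -0.44 (SE 0.21, adjusted p = 0.46).

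Role lists of chromosome 8 genes were read in turn, with 131 tested genes in all. Of these, 95 were lower and 3 higher at an unadjusted p below 0.05, and 102 had both exonic clones below all reference samples, at a median of -0.51. Over all 719 genes, 62.6% were lower, 75.1% had both exonic clones below all reference samples, and the median was -0.49. The lists were chosen with earlier results known, so their counts are a description. Within the lists, "lower" and "higher" mean an unadjusted p below 0.05, and *Lpl* is in none of them.

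Of 15 DNA replication and repair genes, 14 were lower, and 13 followed the dose line (median -0.48, range -0.91 to -0.32). *Mcm5*, a subunit of the replicative helicase, was at 702, 643 and 585 TPM in wt replicates 1 and 2 and ΔP4 and at 447 and 390 TPM in ΔE1 and ΔE3 (-0.60, SE 0.14). *Orc6*, of the origin recognition complex, was at 305, 354 and 336 TPM against 212 and 214 TPM (-0.62, SE 0.11). *Cdt1*, which loads the helicase, had -0.36, and *Chtf8*, of a clamp loader, -0.33. *Fanca*, of the Fanconi anaemia DNA repair pathway, was the lowest of the list (54.9, 54.5 and 75.6 TPM against 31.5 and 32.95 TPM, -0.91). The groups of these genes did not overlap.

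Chromatin and transcription genes were lower in 21 of 24 cases (median -0.50). *Ctcf*, whose protein sets chromatin loops and boundaries, was at 241, 244 and 219 TPM in the reference samples and at 184 and 179 TPM in the exonic clones (-0.35, SE 0.12). *E2f4*, a cell cycle regulator, and its partner *Tfdp1* had -0.52 and -0.66, and *Smarca5*, a chromatin remodeller, -0.58. *Sap30* and *Gatad2a*, of histone deacetylase complexes, had -0.41 and -0.36, and *Nacc1* -0.50. *Rbl2* (-0.11) was the 1 gene of the list classed as without change, and *Hmgb2* varied too much within groups to be read, with 164 TPM in wt replicate 1 and 67.5 in replicate 2.

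Translation and RNA genes were lower in 12 of 14 cases (median -0.52), the exceptions being *Eif4ebp1* and *Aars*. The ribosomal protein gene *Rpl13* had -0.63. *Ddx39*, an RNA helicase, was at 1053, 1042 and 902 TPM against 774 and 597 TPM (-0.53, SE 0.16). Of 14 genes of membrane traffic and the proteasome, 12 were lower (median -0.58). The proteasome subunit *Psmd7* was at 816, 796 and 703 TPM against 531 and 492 TPM (-0.58, SE 0.13), the lysosomal membrane protein gene *Lamp1* had -0.62, the retromer gene *Vps35* -0.64 and the coatomer gene *Cope* -0.33.

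Mitochondrial and metabolic genes were lower in 13 of 18 cases, with a smaller median of -0.39. *Cox4i1*, a subunit of cytochrome oxidase, was at 2914, 2850 and 3078 TPM in the reference samples and at 2565 and 2133 TPM in the exonic clones (-0.31, SE 0.12), an interval that left out both 0 and -0.58. The complex I subunits *Ndufb7* and *Ndufa13* had -0.35 and -0.26. *Gcdh* (0.03) and *Coq9* (-0.25) were classed as without change. *Gpt2* could not be read, with 69.5 TPM in ΔE1 and 163 TPM in ΔE3.

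Signalling and early response genes were more mixed, with 9 of 16 lower and a range of -1.15 to 0.50. The insulin receptor gene *Insr* was at 12.3, 10.5 and 14.7 TPM against 5.75 and 5.27 TPM (-1.15, SE 0.15). *Jund*, of the AP-1 family, was at 195, 234 and 225 TPM against 102 and 122 TPM (-0.94, SE 0.14), and *Egln1*, an oxygen-sensing hydroxylase, at 25.0, 28.7 and 30.3 TPM against 14.5 and 13.9 TPM (-0.96, SE 0.13). The intervals of these 3 lay below the dose line, and *Fgfr1* and *Gab1* had -0.81 and -0.75. The immediate early gene *Ier2* had -0.36. *Gdf15*, at 0.50 with a SE of 0.51, was not resolved.

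Of the 9 stress response genes, 5 were lower and 2, the metallothioneins, higher. The peroxidase gene *Prdx2* had -0.68, the chaperone genes *Calr* and *Dnajb1* -0.50 and -0.51, and heme oxygenase *Hmox1* -0.44. *Nqo1* differed between the clones, with 51.0 TPM in ΔE1 and 114 TPM in ΔE3. Adhesion and matrix genes had the lowest list median, -0.71 over 12 tested genes, but only 6 were lower. The E-cadherin gene *Cdh1* was at 401, 346 and 341 TPM against 314 and 153 TPM (-0.62, SE 0.28), and the collagen IV genes *Col4a1* and *Col4a2* had 0.01 and 0.15. Among 9 tested developmental factors, *Zfhx3*, *Irx3* and *Irx5* were lower at -1.04, -0.84 and -0.81, and *Zfp42* was higher.

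Partners of these proteins encoded on other chromosomes were read beside them. These were 38 genes: 5 further MCM subunits, *Gins1*, 5 ORC subunits, cohesin, COG, E2F, cadherin and ribosomal partners and *Runx1*. Their median log2 fold change was 0.00, with 1 gene lower and 1 higher at an unadjusted p below 0.05 and 0 called by edgeR. The median of all tested genes was 0.01, and 7.65% of them were lower and 5.29% higher at that threshold. The MCM genes *Mcm2*, *Mcm3*, *Mcm4*, *Mcm6* and *Mcm7* lay between -0.11 and 0.10, beside -0.60 for *Mcm5*. The ORC genes lay between -0.08 and 0.06, beside -0.62 for *Orc6*. The 1 lower gene was the X-linked cohesin subunit *Stag2*, at 75.2, 81.3 and 74.0 TPM in the reference samples and 49.4 and 55.4 TPM in the exonic clones (-0.54, SE 0.12, adjusted p = 0.136 from edgeR). The 1 higher gene was *Cog7* at 0.33, where *Cog2* and *Cog4* of chromosome 8 had -0.58 and -0.44.

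Against the wt replicates, the median log2 fold change of ΔP4 over the 719 genes was 0.03, with 0 called by edgeR (120 at an unadjusted p below 0.05, 16.7%, compared with 15.8% on other autosomes), and a background of 0.0217% of all tested genes called. The exonic clones against the wt replicates in the same fit had -0.48. The exonic *Kdm6a* deletion, the off-target deletion on the X chromosome and the single origin of ΔE1 and ΔE3 cannot be told apart as groups in these samples.

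On the other autosomes edgeR called 1 gene lower, *4930519F09Rik* on chromosome 10 (3.70, 2.35 and 3.09 TPM in the reference samples, 0.0278 and 0 TPM in the exonic clones), and 1 higher, *Pdlim7* on chromosome 13. DESeq2 called 191 lower (1.575%) and 185 higher (1.526%) of the 12127 genes, where 3.64% of all tested genes were called lower and 1.43% higher. Without ΔE1, edgeR called 66 lower and 50 higher. By allele, the BL6 and cast changes differed for 95 of 10195 genes, with BL6 below cast for 50 (0.490%) and above it for 45 (0.441%). Over all genes tested by allele, chromosome 8 included, 4.93% were called with BL6 below cast. Of the 95, 25 lay in 3 blocks, found after the values were seen as runs of at least 3 adjacent genes called in the same direction, and 70 lay outside them. The blocks also held 15 of the 376 DESeq2 calls on these autosomes. Among the 70 were *Cops4*, *Coq2* and *Helq* on chromosome 5 (chr5:100518309-100798598), with 1 uncalled gene, *Plac8*, between them. Their pooled BL6 share was 53.8%, 54.4% and 51.9% in wt replicates 1 and 2 and ΔP4 and 68.1% and 69.7% in ΔE1 and ΔE3. The smallest block held 3 genes on chromosome 7 (*Fbxo27*, *Fbxo17*, *Mrps12*). Its pooled BL6 share was 53.4% to 56.3% in the reference samples and 50.6% and 44.6% in ΔE1 and ΔE3. *Fbxo17* and *Mrps12* were just under the threshold (adjusted p = 0.0499 and 0.0497 from edgeR), with total log2 fold changes of -0.05 and -0.02. Its 8 flanking genes together had 54.7% to 57.4% in the reference samples and 53.6% and 61.0% in ΔE1 and ΔE3.

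On chromosome 2, nearly all cast fragments were missing from a stretch of 6 genes, *Ehd4*, *Vps39*, *Tmem87a*, *Ganc*, *Zfp106* and *Snap23* (chr2:120089175-120601255, 0.512 Mb). Together these genes had 10926, 10532 and 12316 cast fragments in wt replicates 1 and 2 and ΔP4, and 17 and 29 in ΔE1 and ΔE3. BL6 fragments were 11862, 11363 and 13188 in the reference samples and 12829 and 11336 in the exonic clones. The BL6 share was 51.7% to 52.1% in the reference samples and 99.9% and 99.7% in the exonic clones, while 8 flanking genes together stayed at 50.1% to 51.8% in all 5 samples. *Zfp106*, a zinc finger protein that binds RNA, was at 237, 212 and 258 TPM against 125 and 109 TPM (log2 fold change -0.99, SE 0.12, adjusted p = 0.0688 from edgeR), and the other 5 genes lay between -1.05 and -0.83. In all 6 genes both exonic clones were below all reference samples.

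On chromosome 13 cast fragments were more numerous over 17 genes read by allele, from *Nsd1* to *Txndc15* (chr13:55209782-55726227, 0.516 Mb). Cast fragments were 14570, 14358 and 13933 in wt replicates 1 and 2 and ΔP4 and 30736 and 27285 in ΔE1 and ΔE3, while BL6 fragments were 14558, 14651 and 14204 against 15070 and 13799. The pooled BL6 share was 49.98% to 50.5% in the reference samples and 32.9% and 33.6% in the exonic clones, and 49.7% to 52.2% in the 7 other samples of the series. The gene before the block, *Fgfr4*, had shares of 39.4%, 38.7% and 50.4% against 28.2% and 28.8% (difference between alleles not called, adjusted p = 0.0759 from edgeR). Of the 17 genes, 16 had a called difference between alleles, and the exception, *Prr7*, had adjusted p = 0.0553 from edgeR. Total level of the 19 tested genes in the stretch had a median log2 fold change of 0.57, and 17 were above all reference samples in both exonic clones by TPM (18 on the scale of the fit). The exceptions by TPM were *Prr7* and *B230219D22Rik*, in which ΔP4 was above ΔE1. Of all 13808 tested genes, 1671 were above all reference samples in both exonic clones by TPM, and 1944 (14.1%) on the scale of the fit. *Pdlim7*, a scaffold protein of the actin cytoskeleton and the 1 autosomal gene called higher by edgeR, lies in this block, at 115, 113 and 126 TPM against 240 and 217 TPM (0.97, SE 0.10, adjusted p = 0.0472 from edgeR). Under other scalings of the libraries its adjusted p was 0.0515 and 0.0534. *Nsd1*, a histone H3 lysine 36 methyltransferase, was at 117, 99.4 and 106 TPM against 184 and 168 TPM (0.73, SE 0.12, adjusted p = 0.0985 from edgeR).

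**Figure D5:**
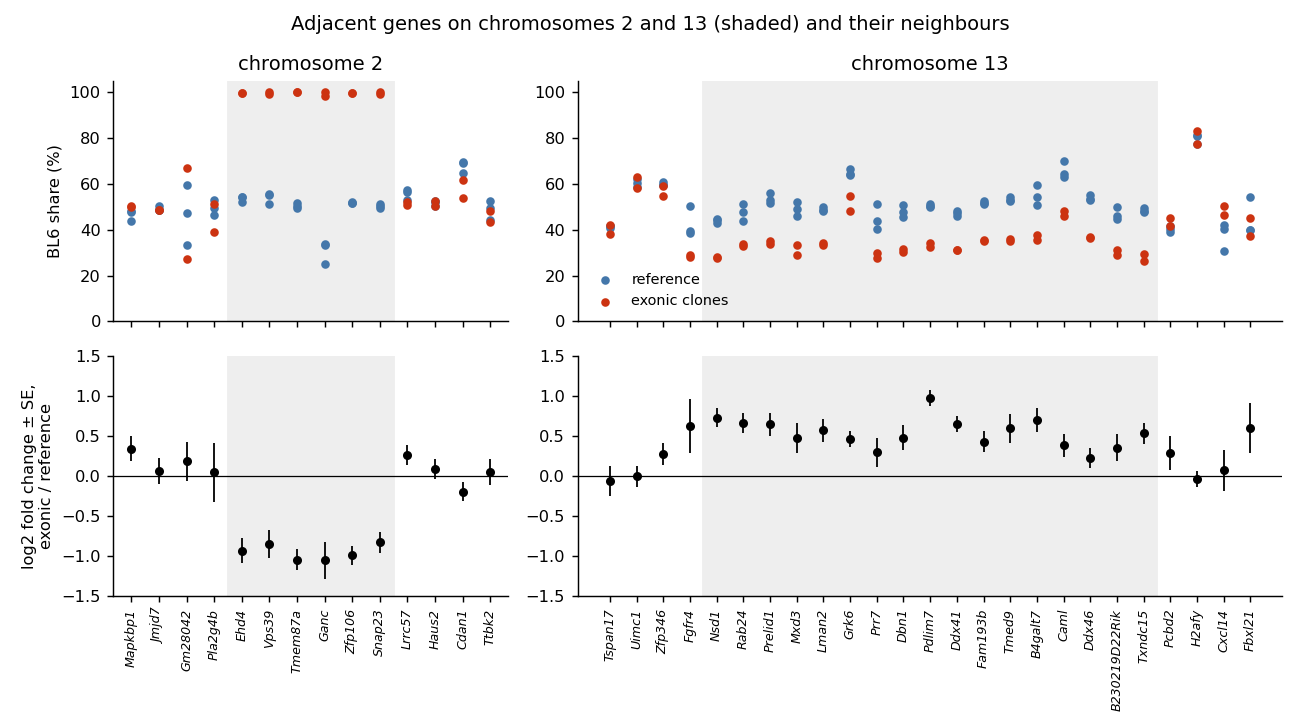
Genes of the chromosome 2 and chromosome 13 blocks (shaded) and 4 neighbours on each side, in order. Upper panels: BL6 share in percent, blue points for wt replicates 1 and 2 and ΔP4, red points for ΔE1 and ΔE3. Lower panels: log2 fold change of total level with its SE. In the chromosome 2 block the red points are close to 100% with log2 fold changes of -1.05 to -0.83, and in the chromosome 13 block they lie below the blue points of each of the 17 genes read by allele, with log2 fold changes above 0.

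Besides the called genes and outside these blocks, the largest differences with both exonic clones beyond the reference samples were seen for genes that edgeR did not call. *H19*, an imprinted noncoding RNA expressed from the maternal allele, was at 169, 154 and 191 TPM in wt replicates 1 and 2 and ΔP4 and at 29.1 and 4.09 TPM in ΔE1 and ΔE3 (log2 fold change -3.35, SE 0.73, adjusted p = 0.135 from edgeR). *Ndufa4l2* and *Tspan8* had -2.87 and -2.29. In the other direction, *Cited4*, a transcriptional coactivator, was at 6.26, 7.20 and 8.99 TPM against 25.9 and 27.8 TPM (1.87, SE 0.20, adjusted p = 0.0571 from edgeR), and *Spink1*, *Catip* and *Mzb1* had 1.97, 1.89 and 1.86. The ligand gene *Wnt7b* (1.99) was high in ΔE1 alone, at 21.6 TPM, with 3.59 TPM in ΔE3 and 2.997 to 3.37 TPM in the reference samples. *Ubd* and *Gm13580*, at 1.80 and 1.81, were higher in ΔE3 than in ΔE1.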

How the data were processed

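RNA-seq of 12 F1 hybrid ES cell samples was used; 5 samples in 3 groups entered the tests. Per the authors' methods, single-end 75 bp reads were aligned to the BL6 genome (mm10) and to a pseudo-cast genome with TopHat/bowtie (the submitters' processing notes name Bowtie2 2.2.5), reads with mapping quality of at least 30 were kept, and the authors deposited, per gene, estimated counts of all reads and of reads with BL6 or cast SNPs. These expected counts need not be whole and were rounded. The gene annotation the authors used is not given in the sources used here. Strand was not stated to be used, so overlapping and antisense genes cannot be told apart.

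Genes were placed with GENCODE vM21, which gave a single position for 23310 of 24346 symbols. TPM used the longest RefSeq-tagged transcript of each gene, or the longest of any kind. Genes that exceeded 1 TPM in any of the 5 samples were tested with edgeR 4.0.16 (quasi-likelihood test, TMM, Benjamini-Hochberg adjustment over all tested genes, FDR below 0.05), exonic clones against wt and ΔP4 together. The X-linked genes of the off-target deletion stayed in. Alleles were tested where each sample had 20 or more SNP fragments of a gene, each allele with its sample's library size, and the difference in 1 model with a term per sample. DESeq2 1.42.0 was an alternative (R 4.3.3). The edgeR fit of total level was run on simulated counts with a single dispersion, 0.0369, for all genes. It called 10.8% of chromosome 8 genes set to the ratio of 2 to 3. It called 98.5% of 200 genes given a larger change and 0.0853% of unchanged genes. Real genes need not share 1 dispersion, so these rates need not hold for the data. Replicates differed by more than sampling noise (median chi-square over genes 2.79 between wt replicates, 14.4 between ΔE1 and ΔE3). By this measure ΔE1 was nearer to wt replicates 1 and 2 (8.47 and 11.6) than to ΔE3, while ΔE3 was further from them (20.7 and 15.7). The study's methods call the 2 wt samples biological replicates and its results call them wt clones. How far their cultures were separate is not described, and ΔE1 and ΔE3 share an origin. The p-values therefore set group differences against the spread among these samples only.

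The chromosome, the role, partner and marker lists and the alternatives were chosen with earlier results of these data known. Named genes were taken by rule: members of the role and partner lists, led by the best expressed, the 6 largest decreases and increases on chromosome 8, the 10 best expressed genes classed as without change or higher, the 5 smallest and 5 largest falls of the BL6 share (at least 50 SNP fragments), and the 8 largest changes in each direction elsewhere. The decreases, increases and changes elsewhere needed both exonic clones on the same side of all reference samples and a mean level not under 1 TPM. The runs of adjacent or nearby genes, the unadjusted counts, the counts by TPM and the average of ΔE1 and ΔE3 were added after the values were seen. Some genes that the rule would name are not reported here.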

Additional observations from a re-analysis of the deposited data

How the results depend on the processing

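The median log2 fold changes of chromosome 8 genes in all, BL6 and cast fragments, the BL6 share of the exonic clones, the count of genes whose allele changes differ and the median of ΔP4 against wt kept their direction in the alternatives run. Counts of called genes did not. Genes lower on chromosome 8 (1), lower on other autosomes (1) and higher on other autosomes (1) became 6, 6 and 3 without a filter on low values, 0, 0 and 0 above 5 TPM, 0, 0 and 0 with 3 groups in the fit, 283, 191 and 185 with DESeq2, and 0, 2 and 0 with ΔE1 and ΔE3 averaged. The last count was also 0 with TMM without chromosome 8 genes, with DESeq2 size factors and with reads mapped to the BL6 genome alone. Leaving out 1 sample at a time gave 0 to 29, 0 to 66 and 0 to 50, each highest without ΔE1, and 0 to 1 chromosome 8 genes higher. It gave 0 to 201 genes with lower BL6 fragments (285 with all samples), 30 to 83 genes without change (54), 346 to 450 chromosome 8 genes at an unadjusted p below 0.05 (450) and medians of -0.53 to -0.49. The cause was not tested. With 3 groups in the fit, which sets the exonic clones against the mean of wt and ΔP4 on the log scale, the log2 fold change of *Kdm6a* was 3.10 instead of -1.44. No paired analysis was possible because the labels number the wt replicates but give the knockout samples clone names, and nothing ties a clone to a wt replicate. Allele values rest on the fragments that carry a SNP, and 111 tested chromosome 8 genes had too few of them.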

Other observations

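Y-linked genes differed between the exonic clones. *Ddx3y* was at 11.5 and 10.9 TPM in wt replicates 1 and 2, at 19.4 in ΔP4 and at 11.8 in ΔE1, but at 2.05 in ΔE3, and *Uty*, the Y-linked relative of *Kdm6a*, was at 9.29, 9.64, 23.7 and 11.3 TPM in these samples and at 2.02 in ΔE3. Neither gene was called in the comparison of the groups.

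For *H19*, BL6 fragments, the maternal allele, numbered 2041, 2014 and 2340 in wt replicates 1 and 2 and ΔP4 and 247 and 36 in ΔE1 and ΔE3, and cast fragments 82, 87 and 53 against 169 and 17.

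On chromosome 1 the median BL6 share was between 67.8% and 68.4% in all 5 BC male samples, exonic clones included, at the level that chromosome 8 had in the reference samples. In the chromosome 2 block the pooled BL6 share of the BC female wt samples was 6.95% and 7.17%, and that of the CB samples 57.5% to 59.2%.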
